A study of Mus musculus with 30 samples.

Results

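IRF2 is a transcription factor of the interferon regulatory factor family, and its loss was examined here in interferon gamma (IFNγ)-treated cells of the mouse dendritic line DC3.2. The comparison sets 2 libraries of the line labelled IRF2KO against 2 libraries of the line labelled WT, all from cells given IFNγ at 2 ng/mL for 2 h, and these are 4 of the 30 RNA sequencing libraries in the series. Members were taken by their labels alone. In the library titles IRF2KO reads IRF2sg and WT reads nosg, and the kind of Irf2 lesion, the number of clones behind each line and a targeting control are not given in the sources used here. Every group is thus 1 cell line, and effects of how the lines were made cannot be told apart from effects of IRF2. The titles give the 2 libraries of a group different date-like codes, but nothing in the labels says that they came from separate cultures. Each p-value thus rests on a spread between libraries, estimated over 12 groups, which may be technical. For comparison, the same pair of lines was taken after 2 h in media alone, and the line with both factors targeted (DKO) was set against the line with IRF1 targeted (IRF1KO), both under the same IFNγ treatment. IFNα at 5000 U/mL for 2 h was used only for side values.

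IFNγ is a cytokine of T and NK cells that signals through the JAK kinases and STAT proteins, which bind GAS elements and switch on genes that include Irf1, and IRF1 then acts on a further set through ISRE-type elements, which are built from repeats of the letters GAAA. IRF2 binds the same kind of element. It is known as a repressor of interferon-stimulated genes and also as an activator of some of them, and in antigen-presenting cells the targets of this pathway include the machinery that makes and loads peptides on MHC class I, guanylate-binding proteins and sensors of viral RNA.

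Promoter windows of genes at the centre of the comparison are shown first, because they hold elements that both factors are known to bind. The windows run from 250 bases before to 50 bases after the transcription start, are taken from RefSeq on GRCm38.p6, and are written 5′ to 3′ on the gene's own strand. Capitals mark matches to the ISRE-type motif GAAANNGAA or its reverse complement TTCNNTTTC. The named genes that were higher in IRF2KO cells with the largest differences are represented by Rsad2 (chr12:26456403-26456702, minus strand), which encodes the antiviral enzyme viperin, and by Gbp5 (chr3:142496684-142496983, plus strand), a guanylate-binding protein. Called genes were chosen for printing only if their window holds a match, so they do not stand for all called genes. Shown of the genes that were lower are the protease gene Ctso (chr3:81932351-81932650, plus strand) and 2 cytosolic sensors of viral RNA, Ifih1 (chr2:62646206-62646505, minus strand) and Ddx58 (chr4:40239776-40240075, minus strand). Erap1 (chr13:74639603-74639902, plus strand), the aminopeptidase that trims peptides in the endoplasmic reticulum, was not called here. It was called lower in IRF2KO than in WT cells in media, and differed strongly under IFNγ where IRF1 was targeted as well. In the Ctso and Erap1 windows 2 matches each overlap into 1 run of capitals.
Rsad2: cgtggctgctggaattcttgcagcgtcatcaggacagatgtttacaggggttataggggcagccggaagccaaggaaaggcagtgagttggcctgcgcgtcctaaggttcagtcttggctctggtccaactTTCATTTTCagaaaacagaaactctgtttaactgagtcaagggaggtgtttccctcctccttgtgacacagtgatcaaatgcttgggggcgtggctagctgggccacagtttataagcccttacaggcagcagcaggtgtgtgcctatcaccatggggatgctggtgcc
Gbp5: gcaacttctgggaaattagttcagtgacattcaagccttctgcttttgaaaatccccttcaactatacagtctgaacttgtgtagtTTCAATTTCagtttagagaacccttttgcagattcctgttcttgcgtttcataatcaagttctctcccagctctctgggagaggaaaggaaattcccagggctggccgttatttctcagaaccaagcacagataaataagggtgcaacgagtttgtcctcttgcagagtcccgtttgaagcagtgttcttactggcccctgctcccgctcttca
Ctso: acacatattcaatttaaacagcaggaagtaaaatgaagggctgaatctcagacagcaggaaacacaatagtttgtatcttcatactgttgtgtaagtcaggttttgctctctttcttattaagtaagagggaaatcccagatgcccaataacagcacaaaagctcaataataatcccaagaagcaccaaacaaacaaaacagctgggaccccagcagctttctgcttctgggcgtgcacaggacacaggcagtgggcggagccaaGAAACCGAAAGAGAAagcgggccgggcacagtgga
Ifih1: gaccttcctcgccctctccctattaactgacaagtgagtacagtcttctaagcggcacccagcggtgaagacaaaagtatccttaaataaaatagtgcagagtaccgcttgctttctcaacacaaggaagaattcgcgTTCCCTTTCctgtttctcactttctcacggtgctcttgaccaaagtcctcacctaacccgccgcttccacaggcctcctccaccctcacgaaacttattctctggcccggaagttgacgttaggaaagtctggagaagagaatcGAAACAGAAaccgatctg
Ddx58: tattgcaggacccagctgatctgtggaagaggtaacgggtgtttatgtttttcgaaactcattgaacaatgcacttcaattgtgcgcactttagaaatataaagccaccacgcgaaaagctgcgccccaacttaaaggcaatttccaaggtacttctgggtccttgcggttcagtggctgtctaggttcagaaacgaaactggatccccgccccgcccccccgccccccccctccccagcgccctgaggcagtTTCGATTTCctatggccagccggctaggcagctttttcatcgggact
Erap1: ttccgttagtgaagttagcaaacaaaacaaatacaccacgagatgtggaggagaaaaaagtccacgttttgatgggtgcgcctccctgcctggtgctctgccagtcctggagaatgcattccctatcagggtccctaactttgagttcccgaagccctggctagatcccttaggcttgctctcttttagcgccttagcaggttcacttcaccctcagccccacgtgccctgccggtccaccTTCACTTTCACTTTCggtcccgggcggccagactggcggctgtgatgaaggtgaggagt

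Matches to the ISRE-type motif stood in 8 of the 26 genes called higher that have a window (30.8%), in 8 of the 41 called lower (19.5%) and in 752 of all 8476 tested genes with a window (8.87%). The GAS-type motif TTCNNNGAA, which reads the same on both strands, stood in 6 of the 26 (23.1%), 5 of the 41 (12.2%) and 722 of the 8476 (8.52%). Genes called higher had 1.5 windows each, genes called lower 1.32 and all tested genes 1.27, and no test was made on these shares. Of the named guanylate-binding protein genes, the 4 with a window all held an ISRE-type match, whereas the windows of Acadl, Arsb, Tlr3, Nmi and Sp100, all lower in IRF2KO cells, and of Cmpk2, Gm19705 and Psmb8, all higher, held none. A match is a string of letters and was not measured as a binding site.

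Values are in TPM, the share of each transcript in its library after adjustment for transcript length, scaled to 1 common total. The Irf2 transcript itself had 22.3 and 22.1 TPM in IRF2KO cells, against 33.3 and 30.6 TPM in WT cells, all under IFNγ. The groups did not overlap, but the difference of log2(TPM + 1), −0.51 ± 0.14 (SE), did not pass the test (adjusted p = 0.147), so the RNA level does not by itself check the label. The 24 replicated libraries had between 10911 and 11101 genes at 1 TPM or more, and the 2 libraries of a group correlated across genes with r = 0.9857 for IRF2KO and 0.9843 for WT under IFNγ (genes are not independent replicates). The entry with the largest share, AK155692, took 3.84% and 5.07% of the IRF2KO libraries and 3.96% and 6.15% of the WT libraries. Of 14 dendritic cell markers 9 passed the filter on low values: Batf3, Id2 and Itgax (CD11c) were present in all 4 libraries, while Flt3, Xcr1, Clec9a, Itgae and Cd8a stood at 0.22 TPM or lower. Macrophage markers were abundant, with Lyz2 at 1211 and 1399.6 TPM in IRF2KO and 1697 and 1499.9 TPM in WT cells. Summed lymphocyte markers reached 2.12 to 5.99 TPM and stromal markers 8.04 to 10.05 TPM over the 4 libraries. Fewer cells in a responding state and less RNA per cell cannot be told apart in such bulk samples.

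Loss of IRF2 under IFNγ went with changes in both directions. Higher in IRF2KO cells were 5 of 10 guanylate-binding protein genes and 5 of 44 antiviral genes of the type I interferon kind. Lower were another 5 of those 44, the pore-forming gene Gsdmd and 4 sensors of RNA. With limma on log2(TPM + 1) and an adjusted p under 0.05, 37 genes were called higher (0.312% of the 11842 tested) and 58 lower (0.49%), together 0.802%. Differences of the genes called higher lay between 0.53 and 3.30 with a median of 1.29, and their mean level had a median of 17.5 TPM in IRF2KO and 3.23 TPM in WT cells. Those of the genes called lower lay between −3.75 and −0.56 with a median of −1.26, at median levels of 1.61 TPM in IRF2KO and 6.30 TPM in WT cells. The median over all tested genes was −0.03. With the replicate number as a block 96 genes were called higher and 163 lower, among them all of these 95. In the compared 4 libraries alone, where 2 degrees of freedom remain, limma called none and 914 genes had an unadjusted p under 0.05. Leaving out 1 library also lowered the count, to 46 without IRF2KO replicate 1, 57 without IRF2KO replicate 2, 58 without WT replicate 1 and 52 without WT replicate 2, and 36 of the 95 genes were called in each of these fits.

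Guanylate-binding proteins, large GTPases that gather on pathogen vacuoles and bacteria, were among the most abundant of the higher genes. Of 11 family members 10 passed the filter, and 5 of these were called higher and none lower, with a median difference over the 10 of 1.39. Their summed level was 2261 and 1819 TPM in IRF2KO cells, against 617 and 628 TPM in WT cells, so the libraries of the lines stood well apart. Members of this family are close in sequence and the submitters' counting divides shared reads by estimate, so values of single members are less certain than the sum.

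Gbp3 had 384 and 310.3 TPM in IRF2KO cells and 52.8 and 64.9 TPM in WT cells, a difference of 2.54 ± 0.25 (SE, adjusted p = 2.69e-05). Gbp4 had 283 and 255 TPM in IRF2KO and 58.2 and 49.3 TPM in WT cells, a difference of 2.31 ± 0.28 (adjusted p = 0.000223). Both genes stood several times higher in each IRF2KO library than in either WT library. Gbp5, known in mice as a promoter of inflammasome activation, had the steepest difference of the family, with 51.3 and 39.3 TPM in IRF2KO and 4.84 and 4.51 TPM in WT cells (3.02 ± 0.22, adjusted p = 1.33e-06). Gbp7 was at 312 and 254 TPM in IRF2KO and 96.7 and 98.1 TPM in WT cells (1.52 ± 0.16, adjusted p = 8.43e-05). Gbp6 was called as well at 1.29 (adjusted p = 0.00413), a call that was lost without IRF2KO replicate 1 (1.18) and without WT replicate 2 (1.19).

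Gbp2, the most abundant member, had 1099 and 833 TPM in IRF2KO cells and 334 and 344 TPM in WT cells. Its groups did not overlap, yet the difference of 1.49 ± 0.41 missed the threshold (adjusted p = 0.144), and it passed with the replicate block (adjusted p = 0.0221). The gene varied strongly between libraries in other groups, for example 4.48 and 0.92 TPM in WT cells in media, and the spread of a gene is estimated over all 12 groups. Gbp8, Gbp9 and Gbp10 stood at differences of 0.86, 0.97 and 0.64 without a call, and Gbp11 at −0.03. Gbp5, Gbp7, Gbp3 and Gbp2 lie in 1 stretch of chromosome 3 (chr3:142496934-142522344, chr3:142530336-142550151, chr3:142560016-142573213 and chr3:142620663-142638008 on GRCm38.p6), while Gbp4 lies on chromosome 5 (chr5:105115767-105139586).

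The immunity-related GTPases, which act with the guanylate-binding proteins on pathogen vacuoles in mice, did not share this pattern of calls. In the limma fit none of 9 was called, 3 had an unadjusted p under 0.05, and their median difference was 0.19. Igtp had 543 and 525 TPM in IRF2KO and 422 and 414 TPM in WT cells (0.35 ± 0.20, adjusted p = 0.68). Iigp1 pointed the other way, with 38.1 and 39.5 TPM in IRF2KO and 78.1 and 79.4 TPM in WT cells (−1.0 ± 0.25, adjusted p = 0.0913). With the replicate block 1 of the 9 was called lower.

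Genes best known as targets of type I interferon split into members that were higher and members that were lower. Of 44 tested genes of this kind, 5 were called higher and 5 lower, and the median difference was −0.10. Rsad2 (chr12:26442743-26456452) had the largest difference of the called genes with a level above 0 in both lines, at 11.7 and 7.64 TPM in IRF2KO cells and 0.09 and 0.04 TPM in WT cells (3.30 ± 0.22, adjusted p = 5.04e-07). Its neighbour Cmpk2 (chr12:26469117-26479837), a mitochondrial nucleotide kinase, had 13.1 and 10.2 TPM in IRF2KO and 0.47 and 1.11 TPM in WT cells (2.83 ± 0.24, adjusted p = 4.73e-06). Both genes were close to absent in WT cells after 2 h of IFNγ and were clearly present in IRF2KO cells. Ifit3 and Ifit1, of a family that binds viral RNA, followed with 9.46 and 6.19 TPM in IRF2KO and 1.45 and 0.83 TPM in WT cells for Ifit3 (2.03 ± 0.24, adjusted p = 0.000171). Ifit1 had 6.87 and 5.06 TPM in IRF2KO and 1.62 and 1.11 TPM in WT cells (1.55 ± 0.22, adjusted p = 0.00154). The fifth gene called higher was Mx2, an antiviral GTPase, at 1.2 and 1.09 TPM in IRF2KO and 0.1 and 0.2 TPM in WT cells (0.90, adjusted p = 0.032), and its call was lost in each fit without 1 of the 4 libraries (0.84 to 0.96). Copies within the Ifit family also share sequence.

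**Figure D1:**
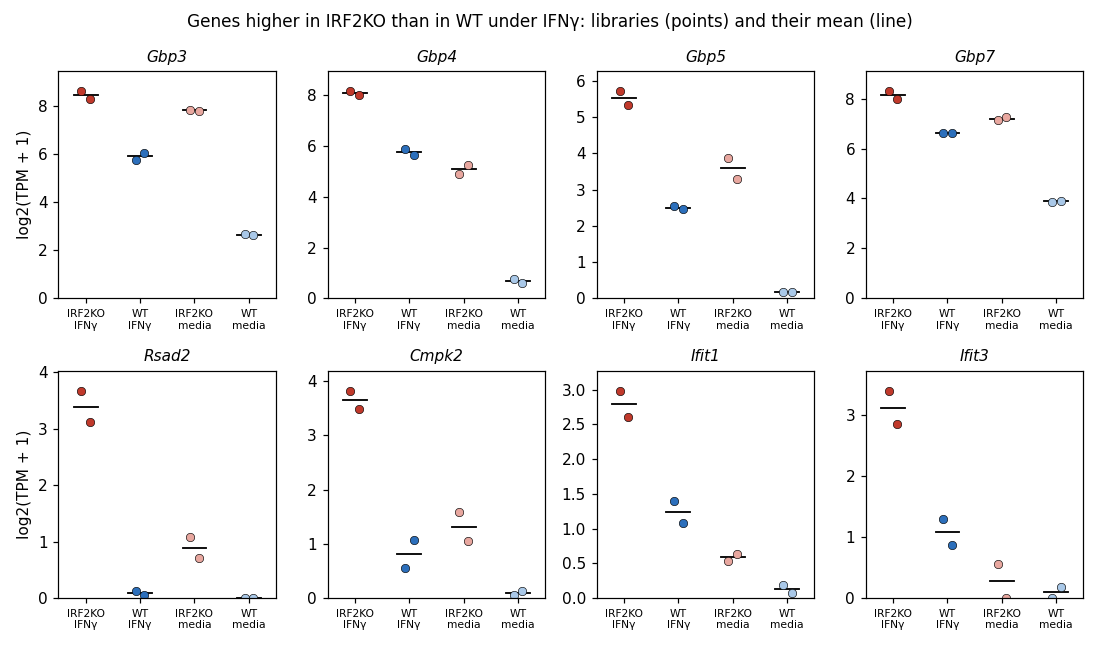
log2(TPM + 1) of 4 guanylate-binding protein genes (top row) and 4 antiviral genes (bottom row) in IRF2KO and WT cells under IFNγ and in media, 2 libraries (points) a group with their mean (line). The IRF2KO libraries lie above the WT libraries under IFNγ in all 8 panels, and also in media in every panel except that of Ifit3.

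On the other side, Nmi, which encodes a partner of STAT proteins and is itself induced by interferon, had 2.88 and 2.32 TPM in IRF2KO and 15.4 and 15.1 TPM in WT cells (−2.18 ± 0.20, adjusted p = 9.3e-06). Epsti1 had 1.53 and 0.85 TPM in IRF2KO and 7.07 and 7.23 TPM in WT cells (−1.91 ± 0.23, adjusted p = 0.00025). Parp14, an ADP-ribosyltransferase, had 7.94 and 9.01 TPM in IRF2KO and 21.8 and 24.4 TPM in WT cells (−1.35 ± 0.20, adjusted p = 0.00206). These 3 genes were lower in both IRF2KO libraries by at least a factor of 2. Oasl2 (−0.98, with its call lost without IRF2KO replicate 2 at −0.87 and without WT replicate 1 at −0.91) and the nuclear body gene Sp100 (−2.0 ± 0.42, adjusted p = 0.035) completed the 5, and the call of Sp100 was lost in 8 of 12 alternative fits, among them each fit without 1 of the 4 libraries (−2.27 to −1.74). Most of the list was not called: Isg15 stood at 5.32 and 3.24 TPM in IRF2KO and 9.04 and 5.89 TPM in WT cells, and Bst2 at 175 and 189 TPM in IRF2KO and 148 and 159 TPM in WT cells. With the replicate block 8 of the 44 were called lower.

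Some sensors of viral RNA were lower in IRF2KO cells. Of 24 tested genes for sensing of nucleic acids and for Toll-like receptor signalling, 4 were called lower and none higher, and these 4 are the cytosolic sensors Ifih1 (MDA5), Ddx58 (RIG-I) and Dhx58 (LGP2) and the endosomal double-stranded RNA receptor Tlr3. Ifih1 was nearly absent, with 0.08 and 0.17 TPM in IRF2KO cells against 4.99 and 4.97 TPM in WT cells (−2.41 ± 0.15, adjusted p = 2.56e-07). Tlr3 had 1.08 and 1.05 TPM in IRF2KO and 6.61 and 5.81 TPM in WT cells (−1.80 ± 0.19, adjusted p = 7.95e-05). Ddx58 had 1.77 and 1.35 TPM in IRF2KO and 5.77 and 4.97 TPM in WT cells (−1.32 ± 0.19, adjusted p = 0.00188). Dhx58 was at −1.03 (adjusted p = 0.0148). Among the 4 fits without 1 library it was called again only without WT replicate 2, and the other 3 gave −1.09 to −0.90. Others were not called, among them Tlr7 at 0.01 and Tlr13 at −0.09, both endosomal receptors for RNA. The adaptor Mavs, through which Ifih1 and Ddx58 signal, had 38.9 and 38.7 TPM in IRF2KO and 46.5 and 35.4 TPM in WT cells and was not called either. The DNA sensor Aim2, also not called, had 23.6 and 19.9 TPM in IRF2KO and 20.5 and 21.3 TPM in WT cells. The median over the 24 was −0.21. The 4 genes called lower are expressed at a few TPM in WT cells, where the added pseudocount makes a difference look smaller than it is.

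Among 20 tested genes of cell death, 2 were called lower, Gsdmd among them, and none higher, with a median over the 20 of 0.05. Gsdmd, whose product forms the pores of pyroptosis, had 5.21 and 3.07 TPM in IRF2KO cells and 39.3 and 33.4 TPM in WT cells (−2.89 ± 0.24, adjusted p = 4.73e-06). Other parts of the inflammasome route were not called. Casp4 (caspase-11), which cleaves gasdermin D on sensing of lipopolysaccharide, stood at 44.6 and 33.7 TPM in IRF2KO and 49.1 and 25.4 TPM in WT cells with overlapping groups (0.13 ± 0.39, adjusted p = 0.966). Casp1 had 153 and 98.1 TPM in IRF2KO and 80.6 and 66.4 TPM in WT cells (0.74 ± 0.23, adjusted p = 0.235), and the adaptor Pycard had 76.2 and 85.8 TPM in IRF2KO and 67.2 and 66.0 TPM in WT cells. With the replicate block 2 members of the list were called higher.

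Several genes outside the interferon lists were among the most strongly lower. Acadl, a mitochondrial enzyme of fatty acid oxidation, had 1.67 and 1.32 TPM in IRF2KO cells and 22.1 and 19.4 TPM in WT cells (−3.12 ± 0.26, adjusted p = 4.73e-06). Ctso, a cysteine protease of the cathepsin family, had 0.28 and 0.11 TPM in IRF2KO and 9.9 and 7.85 TPM in WT cells (−3.04 ± 0.17, adjusted p = 8.34e-08). Arsb, a lysosomal sulfatase, had 0.15 and 0.39 TPM in IRF2KO and 6.27 and 9.1 TPM in WT cells (−2.76 ± 0.23, adjusted p = 4.73e-06). Ctso and Arsb were thus at 0.39 TPM or lower in both IRF2KO libraries. Ifi27, a small interferon-inducible membrane protein, stood at −2.36 and Rcn1, a calcium-binding protein of the endoplasmic reticulum, at −2.26. Agt, the angiotensinogen gene, stood at −2.19 (adjusted p = 0.0479), a call that was lost in 11 of 13 alternative fits, among them those without IRF2KO replicate 1 (−2.45), IRF2KO replicate 2 (−1.93) and WT replicate 1 (−1.59). Il18bp, the secreted inhibitor of IL-18, had 2.16 and 3.47 TPM in IRF2KO and 9.72 and 9.78 TPM in WT cells (−1.52 ± 0.22, adjusted p = 0.00181). It was the 1 called member among 21 tested genes listed as IFNγ targets of the GAS type, although its own promoter window held no GAS-type match. Its call was lost without IRF2KO replicate 1, at a difference of −1.27.

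**Figure D2:**
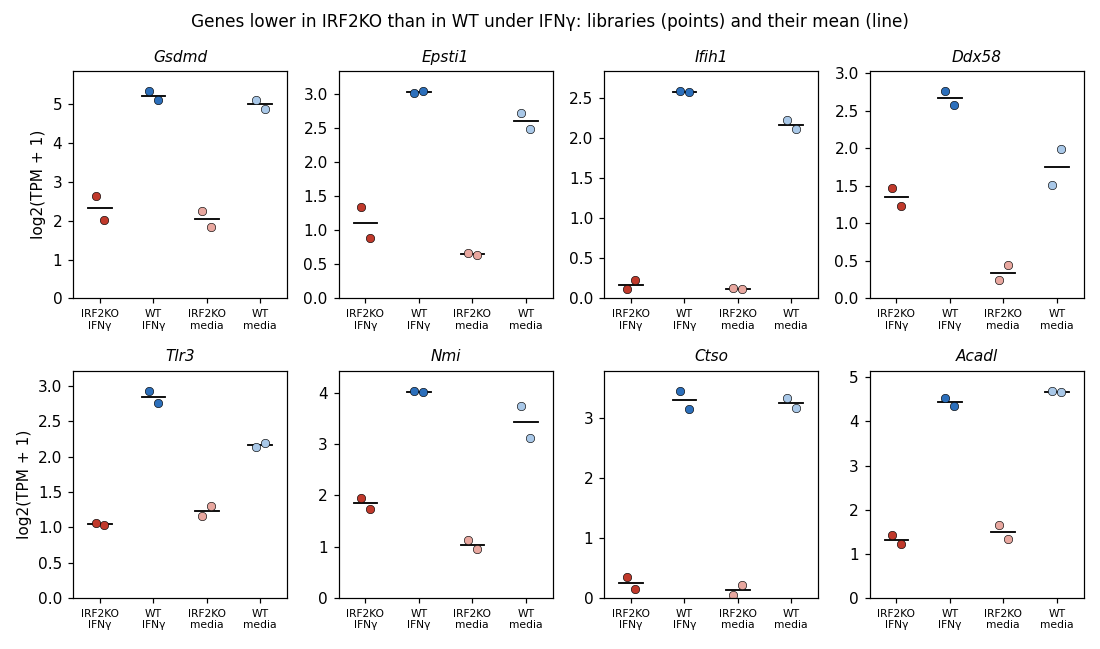
log2(TPM + 1) of 8 genes that were lower in IRF2KO than in WT cells under IFNγ, shown for IRF2KO and WT under IFNγ and in media, 2 libraries (points) a group with their mean (line). The IRF2KO points lie below the WT points in every panel with either treatment, and Ifih1 and Ctso lie close to 0 in IRF2KO cells.

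Further genes called higher were Tmem140, with 29.8 and 26.3 TPM in IRF2KO and 4.26 and 6.22 TPM in WT cells (2.23 ± 0.37, adjusted p = 0.00458), and Gm19705, with 9.43 and 9.75 TPM in IRF2KO and 0.86 and 2.32 TPM in WT cells (2.09 ± 0.30, adjusted p = 0.00154). The call of Tmem140 was lost without IRF2KO replicate 1 (2.15) and without WT replicate 1 (2.00). AK199258 was listed at 0 in both WT libraries and at 10.9 and 5.26 TPM in the IRF2KO libraries, and TRNA_Asp was listed at 0 in both IRF2KO libraries and at 8.64 and 17.9 TPM in the WT libraries, so no fold is given for either. The call of AK199258 was lost without IRF2KO replicate 1, WT replicate 1 or WT replicate 2, and that of TRNA_Asp without WT replicate 2. An entry named for an arm of miR-155 was also among the genes called higher, but could not be matched to that arm by position and is given without a value.

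Antigen presentation on MHC class I, which IFNγ is known to raise, drew 1 call between the lines in the limma fit without the replicate block. This call at 2 h of IFNγ was that of the immunoproteasome gene Psmb8, and the fit with the block called further genes. In the limma fit none of 8 genes of peptide transport, loading and trimming was called and 2 had an unadjusted p under 0.05, with a median of −0.10. Tap2, 1 of the chains of the peptide transporter, had 39.3 and 24.2 TPM in IRF2KO and 72.5 and 74.9 TPM in WT cells. The IRF2KO libraries were both lower, at −1.23 ± 0.29, which missed the threshold (adjusted p = 0.0656) and passed with the replicate block (adjusted p = 0.014). Its partner chain Tap1 had 96.8 and 82.8 TPM in IRF2KO and 99.7 and 102 TPM in WT cells (−0.17 ± 0.17, adjusted p = 0.849). Erap1 had 41.8 and 31.8 TPM in IRF2KO and 61.6 and 58.1 TPM in WT cells, without overlap and without a call (−0.70 ± 0.23, adjusted p = 0.315). In media the same limma fit called both Tap2 (−2.25 ± 0.29, adjusted p = 0.000401) and Erap1 (−1.41 ± 0.23, adjusted p = 0.00532) lower. The other 6 of the list were not called there. The contrasts under IFNγ minus in media, 1.02 ± 0.41 for Tap2 and 0.71 ± 0.33 for Erap1, were not called.

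The catalytic subunits of the immunoproteasome went in different directions. Psmb8 was called higher, with 446 and 425 TPM in IRF2KO and 244 and 250.4 TPM in WT cells (0.82 ± 0.12, adjusted p = 0.002). Psmb9 had 47.1 and 46.9 TPM in IRF2KO and 79.9 and 81.7 TPM in WT cells (−0.77 ± 0.22, adjusted p = 0.193), so its groups stood apart the other way without a call. Psmb10 was at 0.04, and the activator subunits Psme1 and Psme2 at −0.59 and −0.33, none of them called. With the replicate block 1 of these 5 genes was called lower. In media limma called Psmb8 higher (0.88 ± 0.12, adjusted p = 0.000946) and Psme1 lower (−0.96 ± 0.20, adjusted p = 0.0352), and the other 3 were not called. Psmb9, Tap1, Psmb8 and Tap2 lie next to each other on chromosome 17, between 34182030 and 34216321 on GRCm38.p6.

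The class I chains themselves were not called. H2-K1 had 234 and 237 TPM in IRF2KO and 281 and 241 TPM in WT cells, H2-D1 had 1017 and 1005 TPM in IRF2KO and 1095 and 1028 TPM in WT cells, and their activator Nlrc5 stood at −0.32 ± 0.27. None of 10 class I genes was called by limma, 3 had an unadjusted p under 0.05, and the median was 0.09. None of 11 class II genes was called, 1 had an unadjusted p under 0.05, and their median was −0.10. Among 8 checkpoint and costimulatory ligands none was called, 1 had an unadjusted p under 0.05 and the median was 0.35, and with the replicate block 2 were called higher. Cd274, the gene of PD-L1, had 121 and 108 TPM in IRF2KO and 112 and 79.8 TPM in WT cells, a difference of 0.28 ± 0.24 (adjusted p = 0.825). A p above the threshold does not show that levels were equal.

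No signalling gene upstream was called by limma, with 2 of 17 genes of the interferon receptors and the JAK-STAT pathway and 5 of 11 of the IRF family at an unadjusted p under 0.05. Irf1 had 367 and 336 TPM in IRF2KO and 532 and 407 TPM in WT cells (−0.41 ± 0.17, adjusted p = 0.527). It was induced in each line and differed between IFNγ and media by 4.05 ± 0.17 in IRF2KO and 4.40 ± 0.17 in WT cells. Of the 21 gene lists examined, 13 had no member called by limma, with 144 tested members of which 22 had an unadjusted p under 0.05, while over all tested genes 8.53% had one. These lists include cytokines and chemokines, constitutive proteasome subunits, cell cycle genes and macrophage markers. Itgax, at 38.7 and 39.7 TPM in IRF2KO and 61.8 and 59.3 TPM in WT cells (−0.61), and the stress gene Gadd45b (−0.56) were called lower, and both calls were lost whenever 1 of the 4 libraries was left out, with differences from −0.64 to −0.59 for Itgax and from −0.61 to −0.51 for Gadd45b.

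**Figure D3:**
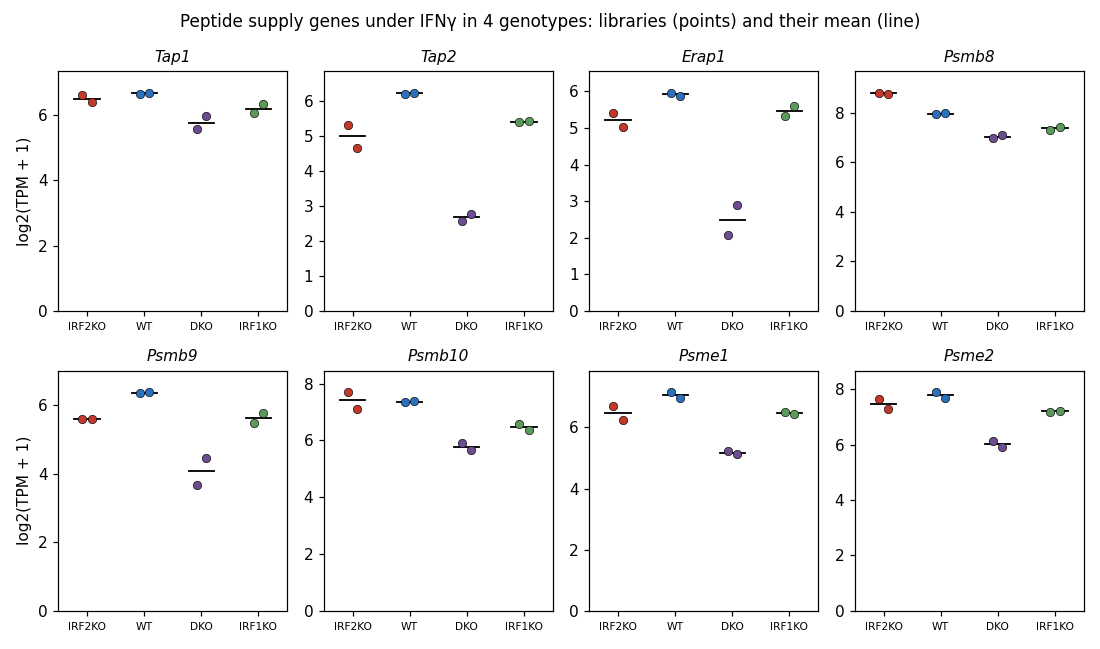
log2(TPM + 1) of 8 peptide supply genes under IFNγ in IRF2KO, WT, DKO and IRF1KO cells, 2 libraries (points) a group with their mean (line). The DKO libraries lie lowest in all 8 panels, and the IRF2KO libraries lie highest for Psmb8.

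Most of the genes called lower under IFNγ were also lower without interferon, whereas the difference between the lines itself changed with IFNγ for Rsad2 and the guanylate-binding protein genes Gbp2, Gbp3 and Gbp7. In media 33 genes were called higher (0.279% of 11842) and 66 lower (0.557%) in IRF2KO against WT cells, from libraries that the IFNγ comparison does not use; between 40 and 57 genes were called when WT or IRF2KO replicate 1 or 2 was left out, and 74 higher and 139 lower with the replicate block. Of the genes called lower under IFNγ 42 were also called lower in media (72.4% of 58, 63.6% of 66), and of those called higher 16 were called higher in media (43.2% of 37, 48.5% of 33). All 37 had the same sign in media, as had 57 of the 58. Gsdmd had 3.8 and 2.56 TPM in IRF2KO and 33.7 and 28.5 TPM in WT cells in media (−2.95 ± 0.24), and Ctso had 0.03 and 0.16 TPM in IRF2KO and 9.1 and 7.97 TPM in WT cells (−3.12 ± 0.17). For both, the difference under IFNγ minus that in media was small, at 0.06 ± 0.35 for Gsdmd and 0.08 ± 0.24 for Ctso.

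The difference of the differences, under IFNγ minus in media, was called for 4 genes (0.0338% of 11842), 1 of them higher (0.00844%) and 3 lower (0.0253%), and 175 had an unadjusted p under 0.05. With the replicate block 7 were called. For 3 guanylate-binding proteins the gap between the lines was narrower under IFNγ on the log2(TPM + 1) scale, though wider in TPM. Gbp2 had 313 and 165 TPM in IRF2KO and 4.48 and 0.92 TPM in WT cells in media, and its contrast was −4.64 ± 0.57 (adjusted p = 0.00434). Gbp3 had 226 and 220.3 TPM in IRF2KO and 5.34 and 5.19 TPM in WT cells in media (contrast −2.62 ± 0.35, adjusted p = 0.00486). Gbp7 had 139 and 152 TPM in IRF2KO and 13.6 and 13.9 TPM in WT cells in media (contrast −1.79 ± 0.23, adjusted p = 0.00434). These genes were thus already abundant in unstimulated IRF2KO cells, and IFNγ added 0.63 to Gbp3 in IRF2KO and 3.25 in WT cells on the log2(TPM + 1) scale. In TPM the mean of Gbp3 went from 223 in media to 346.9 under IFNγ in IRF2KO cells. In WT cells it went from 5.3 to 58.8, so the rise in TPM was larger in IRF2KO cells. The calls for Gbp3 and Gbp7 were lost without IRF2KO replicate 2 under IFNγ, at −2.47 and −1.65. Over the 10 family members the median difference in media was 2.94 with 7 called higher, and the contrast under IFNγ minus in media was negative for 8 of the 10, with a median of −1.34 and 3 called, all lower. Among the 9 immunity-related GTPases 4 were called higher in media, where Irgm1 had 22.9 and 21.4 TPM in IRF2KO and 13.03 and 11.8 TPM in WT cells, but none of the 9 had a called contrast (6 with an unadjusted p under 0.05).

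On the log2(TPM + 1) scale Rsad2 went the opposite way. It had 1.11 and 0.63 TPM in IRF2KO cells in media and was listed at 0 in both WT libraries in media, and the gap widened under IFNγ (contrast 2.40 ± 0.31, adjusted p = 0.00434). With a pseudocount of 0.1 this contrast was not called (2.64, adjusted p = 1). IFNγ raised it by 2.50 ± 0.22 in IRF2KO cells (adjusted p = 2.87e-06), while its difference in WT cells was 0.09 ± 0.22. Ifit3 had 0.48 and 0 TPM in IRF2KO and 0 and 0.14 TPM in WT cells in media. Cmpk2 had 1.99 and 1.08 TPM in IRF2KO and 0.04 and 0.09 TPM in WT cells in media. It was called higher there by limma (1.23 ± 0.24, adjusted p = 0.0166). The contrasts of Ifit3 and Cmpk2, 1.85 ± 0.34 and 1.61 ± 0.33, did not pass the test (adjusted p = 0.111 and 0.302). With IFNα, the inducer these genes are best known for, Rsad2 reached 139.7 and 95.6 TPM in IRF2KO and 2.35 and 2.12 TPM in WT cells, and Ifit3 reached 132 and 86.8 TPM in IRF2KO and 23.3 and 21 TPM in WT cells. Il18bp was called lower with IFNγ and not in media (−0.47 ± 0.22), but its contrast of −1.05 ± 0.32 was not called (adjusted p = 1.0).

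**Figure D4:**
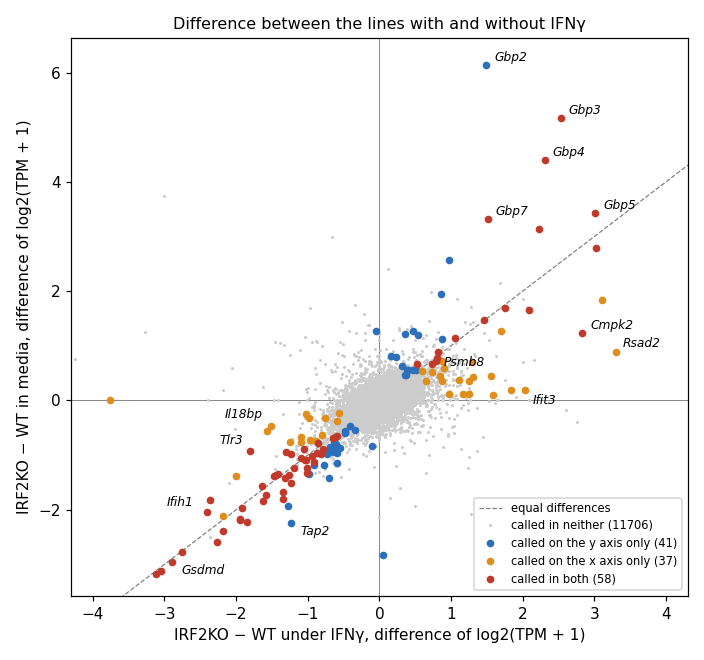
Difference of log2(TPM + 1) between IRF2KO and WT cells under IFNγ (x axis) and in media (y axis) for 11842 genes, with genes called in both comparisons in red, under IFNγ alone in orange and in media alone in blue. Gsdmd and Ifih1 lie near the line of equal differences, Gbp2, Gbp3, Gbp4 and Gbp7 above it, and Rsad2, Cmpk2 and Ifit3 below it on the side of IFNγ.

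The same label was then compared where IRF1 was targeted too. DKO cells against IRF1KO cells under IFNγ gave 32 genes called higher (0.27% of 11842) and 65 lower (0.549%), from libraries that IRF2KO against WT does not use. The count was 59 without IRF1KO replicate 1, 47 without IRF1KO replicate 2 and 270 with the replicate block. Of the genes called in IRF2KO against WT cells, 37 were also called lower here (63.8% of 58, 56.9% of 65) and 14 also higher (37.8% of 37, 43.8% of 32). Gsdmd had 3.34 and 1.74 TPM in DKO and 27.2 and 28.2 TPM in IRF1KO cells (−3.06 ± 0.24), and Ifih1 had 0.08 and 0.05 TPM in DKO and 3.39 and 3.5 TPM in IRF1KO cells (−2.06 ± 0.15). Among the guanylate-binding proteins 7 of 10 were called higher, with a median of 2.19. Gbp3 had 237 and 296 TPM in DKO and 18.2 and 30.8 TPM in IRF1KO cells (3.43 ± 0.25), and Gbp2 had 380.4 and 364 TPM in DKO and 29.4 and 35.8 TPM in IRF1KO cells (3.48 ± 0.41, adjusted p = 0.000134). Of the sensing genes 4 were called lower in DKO cells as well, but Dhx58 was not among them (−0.62, adjusted p = 0.243) and Mndal, of the family of interferon-inducible DNA sensors, was (−1.29, adjusted p = 0.00024).

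The contrast of the 2 backgrounds, DKO minus IRF1KO less IRF2KO minus WT, was called for 5 entries (0.0422% of 11842), 1 of them higher (0.00844%) and 4 lower (0.0338%), and 196 had an unadjusted p under 0.05. Without IRF1KO replicate 1 or 2, IRF2KO replicate 1 or WT replicate 1 it was called for 1, and without DKO replicate 1, IRF2KO replicate 2 or WT replicate 2 for 3. Rsad2 had 0.46 and 0.08 TPM in DKO and 0.05 and 0 TPM in IRF1KO cells (0.29 ± 0.22, not called), against the large difference on the WT background (contrast −3.00 ± 0.31, adjusted p = 0.000731). Cmpk2 had 0.42 and 0.27 TPM in DKO and 0.06 and 0.06 TPM in IRF1KO cells (contrast −2.49 ± 0.33, adjusted p = 0.00931). The call of Cmpk2 was lost without IRF1KO replicate 1 or 2, IRF2KO replicate 1 or WT replicate 1 (−2.49 to −2.23), and with a pseudocount of 0.1 neither contrast passed. Erap1 had 3.26 and 6.39 TPM in DKO and 39.0 and 47.3 TPM in IRF1KO cells, a difference of −2.97 ± 0.23 (adjusted p = 1.84e-06) and a contrast of −2.27 ± 0.33 (adjusted p = 0.0149). Psmb8 had 124 and 134 TPM in DKO and 158 and 173 TPM in IRF1KO cells, so it was higher in IRF2KO than in WT cells and not called in DKO against IRF1KO cells (contrast −1.17 ± 0.17, adjusted p = 0.0149). The call of Erap1 held without DKO replicate 2 or IRF2KO replicate 2 and was lost in the other 6 fits without 1 library (−2.41 to −1.87), and that of Psmb8 held without DKO replicate 2 and was lost in the other 7 (−1.23 to −1.11). The fifth entry, TRNA_Asp, was listed at 0 in most libraries.

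Other genes of peptide supply were lower in DKO than in IRF1KO cells. Tap2 had 5.01 and 5.86 TPM in DKO and 41.1 and 42.3 TPM in IRF1KO cells (−2.73 ± 0.29, adjusted p = 4.45e-05), and Psmb9 had 11.8 and 21.1 TPM in DKO and 43.4 and 53.7 TPM in IRF1KO cells (−1.55 ± 0.22, adjusted p = 0.00142). For neither was the contrast with the WT background called (Tap2 −1.51 ± 0.41, Psmb9 −0.78 ± 0.32, both with an adjusted p of 1.0). Psme1 (−1.29 ± 0.20, adjusted p = 0.00335) and Psme2 (−1.19 ± 0.25, adjusted p = 0.0373) were called lower in DKO cells too, without a called contrast. Tap1 (−0.43) and Psmb10 (−0.70) were not called. Over the 5 genes of the immunoproteasome and its activator, the contrast with the WT background was negative for all 5, with a median of −0.78. All 5 had an unadjusted p under 0.05 by limma, against 196 of all 11842 genes, and 1 of the 5, Psmb8, was called. H2-K1 was called lower in DKO cells at −0.45 (adjusted p = 0.0373). Cd274 had 71.7 and 77.3 TPM in DKO and 51.0 and 38.2 TPM in IRF1KO cells (0.74 ± 0.24, adjusted p = 0.273), without overlap and without a call.

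**Figure D5:**
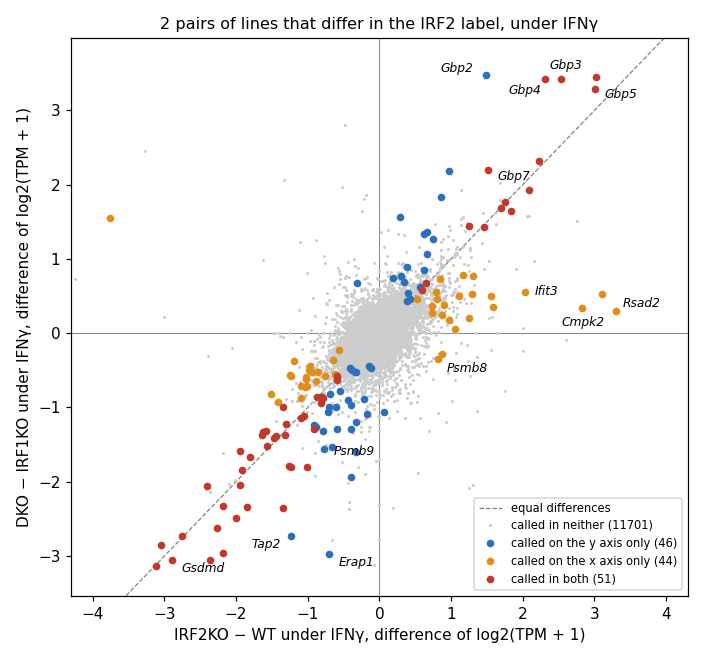
Difference of log2(TPM + 1) under IFNγ between IRF2KO and WT cells (x axis) and between DKO and IRF1KO cells (y axis) for 11842 genes, with genes called in both comparisons in red, in IRF2KO against WT alone in orange and in DKO against IRF1KO alone in blue. Gsdmd lies near the line of equal differences, Rsad2, Cmpk2 and Ifit3 lie far to the right near 0 on the y axis, and Tap2 and Erap1 are low on the y axis.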

How the data were processed

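Total RNA of the 30 samples was isolated with an RNeasy kit and made into Illumina libraries, per the labels' protocols. The authors deposited 1 table of TPM values. The submitters' processing notes name bcl2fastq 2.20, Bowtie 0.12.2 and RSEM, and the builds mm10 and GRCm38 without a role. TPM keeps no read totals, so the depth of a library is unknown and a count model was not used. The table's 41346 entries carry 31427 symbols and were summed by symbol, with no symbol having values of the replicated libraries in more than 1 entry. The 6 libraries without a replicate were not used here.

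Means of 12 groups were fitted to log2(TPM + 1) of 24 libraries with limma 3.58.1 (R 4.3.3, variance prior with a trend). Genes needed 1 TPM or more in 2 or more libraries, which left 11842 genes and 12 residual degrees of freedom. The test is two-sided, with Benjamini-Hochberg adjustment of each p-value across the genes of its comparison, and "called" means an adjusted p under 0.05. A difference of log2(TPM + 1) understates the change of a low gene. Library values follow the order replicate 1, replicate 2, and ± gives the standard error. How often groups of 2 libraries do not overlap was not counted over all tested genes. A lack of overlap is thus not by itself a sign of a difference.

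Members and gene lists were chosen with earlier results of these data known. The rule for named genes takes the 10 largest called differences in each direction (the higher group averaging 5 TPM or more), up to 3 called members of a list, 20 fixed genes, and up to 5 called genes a direction of each contrast of differences. Other list members are named as examples, and some genes that the rule covers are not reported here. The titles give every replicate number its own date-like code, so the numbers may pair the samples. The main fit and its p-values do not use this pairing, and only the fit with the replicate block does. Deviations from the group mean of same-numbered libraries had a correlation over 0.1 for 56 of the 66 group pairs (0.327 for IRF2KO and WT under IFNγ). The block fit is printed where it alters a call or shifts a count by over 1.5 times. A code holds 1 library of a group, so values within a code have no test.

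The fit was run on simulated data with independent spread between libraries and no effect of the replicate number, unlike the data. There it recovered 40.8% of 1.5-fold, 80% of 2-fold and 96.8% of 4-fold changes, with 9.6 other genes called per draw. Differences near 1.5-fold were thus often missed. The fit was repeated with pseudocounts of 0.1 or 5, without the filter, for genes averaging 5 TPM or more, and after median-of-ratios or quantile scaling. It was also repeated with robust variances, with the replicate block, on the compared groups by themselves, with a 2-fold minimum, and without each library in turn. Lists, promoter windows and plots were made in Python 3.11.15 (numpy 2.4.6, pandas 2.3.3, matplotlib 3.10.9).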

Additional observations from a re-analysis of the deposited data

Results flagged for a closer look

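Under the contrast of IFNγ with media, the difference between IRF2KO and WT cells itself differed for 4 genes by the limma contrast. On the log2(TPM + 1) scale Gbp2 (−4.64), Gbp3 (−2.62) and Gbp7 (−1.79) had a smaller difference under IFNγ, and Rsad2 (2.40) a larger one. Under the contrast of the IRF1KO with the WT background the difference that goes with the IRF2 label differed for 5 entries. Rsad2 (−3.00), Cmpk2 (−2.49), Erap1 (−2.27) and Psmb8 (−1.17) had a lower difference in DKO against IRF1KO than in IRF2KO against WT cells, and TRNA_Asp (5.30) a higher one. TRNA_Asp was listed at 0 in both IRF2KO libraries and at 8.64 and 17.9 TPM in WT cells under IFNγ, and at 7.54 and 0 TPM in DKO cells and at 0 in both IRF1KO libraries, and this call was lost in 6 of the 8 fits without 1 library (4.82 to 5.79). Rsad2 is the gene present in both sets. Both contrasts use the same IRF2KO and WT libraries under IFNγ, so its 2 calls are not independent of each other. With 2 libraries a group, samples far from their group were not tested.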

How the results depend on the processing

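No called gene changed its sign in any of the 13 alternatives run on IRF2KO against WT under IFNγ. For every called gene both libraries of 1 line stood above both of the other. Only the fits with another scaling could thus have turned a sign, so the unchanged signs are no test of stability. A mean of at least 5 TPM left 39 calls under IFNγ, 65 in media and 55 for DKO against IRF1KO. With the replicate block the counts were 259 under IFNγ, 213 in media, 270 for DKO against IRF1KO and 7 for IFNγ minus media. The compared groups alone gave 0 under IFNγ (914 at an unadjusted p under 0.05), 4 in media, 1 for DKO against IRF1KO and 0 for the contrast of backgrounds (152 at an unadjusted p under 0.05). A fold of at least 2 left 58 in media, a pseudocount of 5 gave 7 for IFNγ minus media, and a pseudocount of 0.1 gave 2 for the contrast of backgrounds. Leaving out 1 library gave 46 to 58 under IFNγ, 40 to 57 in media, 2 to 5 for IFNγ minus media, 47 to 87 for DKO against IRF1KO and 1 to 5 for the contrast of backgrounds. The cause of these shifts was not tested, beyond the fewer samples or genes that the alternatives hold by construction. Where 1 library is left, it is assumed to vary like the other groups. Casp4, not called, turned to −0.07 without IRF2KO replicate 1 and to −0.33 without WT replicate 2, with fits without 1 library reaching up to 0.60. Tap2 and Gbp2 also passed with a pseudocount of 5. Depth is not known from TPM, so how far low genes such as Ifih1 in IRF2KO cells are limited by counting could not be given.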

Other observations

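Some called genes outside the lists were chosen after their values were seen. Flt1, a receptor for vascular endothelial growth factor, had 37.3 and 39.7 TPM in IRF2KO and 11.97 and 9.66 TPM in WT cells under IFNγ (1.75 ± 0.20, adjusted p = 0.000161), and 30.8 and 43.4 TPM in IRF2KO and 9.54 and 11.7 TPM in WT cells in media. Cst7, a cysteine protease inhibitor, had 78.7 and 73.5 TPM in IRF2KO and 32.4 and 22.5 TPM in WT cells (1.46 ± 0.23, adjusted p = 0.00382), a call lost without IRF2KO replicate 1 (1.41) and without WT replicate 2 (1.21). Both were thus higher in IRF2KO cells. Ptgs2, the inducible cyclooxygenase, had 8.03 and 5.93 TPM in IRF2KO and 1.39 and 1.04 TPM in WT cells (1.84 ± 0.31, adjusted p = 0.00556), and its call was lost without IRF2KO replicate 1 (1.65) and without WT replicate 2 (1.73).

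Lower ones include Chil3, a chitinase-like protein secreted by mouse macrophages, with 0.41 and 0.91 TPM in IRF2KO and 6.79 and 4.09 TPM in WT cells (−1.94 ± 0.22, adjusted p = 0.000157). Il17rc, a chain of the IL-17 receptor, had 0.59 and 0.64 TPM in IRF2KO and 5.38 and 5.03 TPM in WT cells (−1.94 ± 0.22, adjusted p = 0.000121). Il7r, the IL-7 receptor chain, had 0.49 and 0.18 TPM in IRF2KO and 2.47 and 2.1 TPM in WT cells (−1.31 ± 0.18, adjusted p = 0.000809). These 3 calls held in each fit without 1 of the 4 libraries. Arg2, the mitochondrial arginase, had 4.62 and 5.57 TPM in IRF2KO and 15.5 and 13.4 TPM in WT cells (−1.35 ± 0.21, adjusted p = 0.00286), with the call lost without IRF2KO replicate 1 (−1.23) and without WT replicate 1 (−1.25).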
